A study of Mus musculus with 16 samples.

Results

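Arntl, Clock and Npas2 encode the activators of the circadian clock. They were followed in the submandibular gland of the mouse, one of its salivary glands, in 10 RNA-seq libraries and in 6 lists of CUT&Tag summits. The 3 genes were selected by symbol from 55181 genes, and all 3 were among the 15161 genes with an FPKM (fragments relative to transcript length and to all mapped fragments) of at least 1 in at least 2 libraries. CUT&Tag cuts DNA with a transposase that an antibody tethers to a bound protein, and of 158129 summits 81 lay within the 3 genes or 10 kb to either side. The RNA came from whole glands of wild type mice aged 6 to 8 weeks in 5 groups of 2 libraries. Unirradiated glands were taken at zeitgeber time ZT3, ZT9 and ZT15, which the labels set at clock hours 10, 16 and 22, and irradiated glands either 6 h or 24 h after ionising radiation (5 Gy). The labels do not give the clock hour of the irradiated glands, the mouse strain, the sex or whether replicates were separate animals. An effect of irradiation and an effect of clock hour cannot be told apart, and p-values measure only the spread between these libraries, which may be technical. CUT&Tag was done on enzyme-digested glands of control mice, with 2 lists for each of Bmal1 (the protein of Arntl), Nr1d1 and Dbp. The labels put the target under genotype and list no control sample for it.

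BMAL1 is a bHLH-PAS transcription factor that pairs with CLOCK, or with its paralog NPAS2, and the pair binds E-box sequences in the period, cryptochrome, Nr1d1 and Dbp genes. The period and cryptochrome proteins then hold the pair back. Nr1d1 encodes REV-ERB alpha, a repressor of Arntl that competes with the ROR activators for AGGTCA elements, and DBP is an output factor that binds D-boxes. This second loop makes Arntl messenger RNA rise and fall in opposite phase to the period genes in many mouse tissues, while Clock usually varies less. Salivary glands hold such a clock in acinar and duct cells.

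The promoter windows are shown because summits of 5 lists fell in that of Arntl, of 3 lists in that of Clock and of 1 list in that of Npas2. They come from RefSeq (GRCm38.p6, the assembly called mm10), and all 3 symbols matched. Arntl (gene ID 11865) lies at chr7:113178471-113314126 on the plus strand, Clock (12753) at chr5:76209868-76305603 on the minus strand and Npas2 (18143) at chr1:39193702-39363240 on the plus strand. Each window runs 5′ to 3′ along the gene, from 250 bases before a start to 50 bases after it, and capitals mark the 11 bases around each summit. The windows are chr7:113207215-113207514 (plus strand), chr5:76304743-76305042 (minus strand) and chr1:39194022-39194321 (plus strand), in that order of genes.
Arntl: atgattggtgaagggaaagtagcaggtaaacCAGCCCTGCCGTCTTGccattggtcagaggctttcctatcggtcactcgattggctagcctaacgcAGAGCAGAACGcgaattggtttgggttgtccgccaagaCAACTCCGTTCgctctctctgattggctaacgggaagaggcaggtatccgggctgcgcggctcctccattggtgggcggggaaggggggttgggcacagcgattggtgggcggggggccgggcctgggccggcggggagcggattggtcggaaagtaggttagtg
Clock: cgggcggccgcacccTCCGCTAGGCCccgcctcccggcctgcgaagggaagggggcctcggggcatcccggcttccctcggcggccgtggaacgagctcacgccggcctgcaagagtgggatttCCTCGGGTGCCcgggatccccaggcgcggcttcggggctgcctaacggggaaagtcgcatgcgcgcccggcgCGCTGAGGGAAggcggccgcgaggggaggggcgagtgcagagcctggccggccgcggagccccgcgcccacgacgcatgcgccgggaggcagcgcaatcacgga
Npas2: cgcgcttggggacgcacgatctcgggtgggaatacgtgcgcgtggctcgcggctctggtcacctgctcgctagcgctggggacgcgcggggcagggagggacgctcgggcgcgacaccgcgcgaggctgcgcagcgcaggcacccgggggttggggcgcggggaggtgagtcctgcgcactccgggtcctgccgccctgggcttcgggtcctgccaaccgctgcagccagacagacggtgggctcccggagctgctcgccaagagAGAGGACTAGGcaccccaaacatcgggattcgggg
The first capitals of Arntl cover the Bmal1 summits of both replicates, which fell on the same base, together with the Dbp summit of replicate 1. The second and the third cover the Nr1d1 summits of replicates 1 and 2. The next stretch, chr7:113207496-113207557 (plus strand), runs over the second Arntl start at 113207511, and its capitals mark an AGGTCA element and the near match AGGTTA.
Arntl AGGTCA stretch: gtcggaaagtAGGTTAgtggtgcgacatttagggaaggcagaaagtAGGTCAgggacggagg

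In unirradiated glands all 3 activators were highest at ZT3, but over very different ranges. Arntl measured 9.41 and 15.6 FPKM at ZT3, 0.803 and 0.855 at ZT9, and 3.44 and 2.59 at ZT15. Clock measured 8.00 and 8.13 FPKM at ZT3, 1.88 and 3.02 at ZT9, and 5.42 and 5.68 at ZT15. Npas2 measured 5.20 and 11.3 FPKM at ZT3, 0.299 and 0.573 at ZT9, and 0.487 and 0.206 at ZT15. For all 3 genes both ZT3 libraries lay above both ZT9 libraries, a pattern that 46.9% of the 15161 genes also showed in 1 direction or the other. Arntl and Clock were partly back by ZT15, each with both libraries above ZT9, as 32.1% of genes did not overlap between these times. The Npas2 libraries of ZT9 and ZT15 overlapped.

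**Figure D1:**
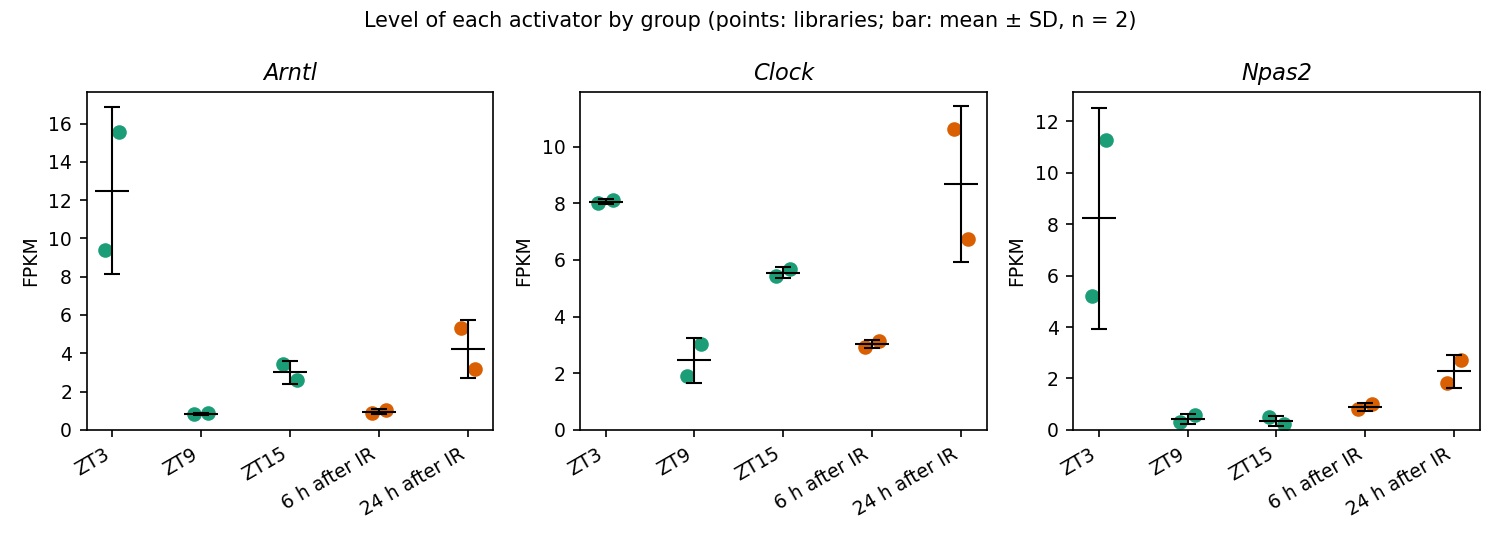
FPKM of Arntl, Clock and Npas2 on linear axes in the 5 groups; points are libraries (control times green, irradiated orange) and bars are the mean ± SD of 2 libraries. ZT3 is the highest group for Arntl and Npas2, and 24 h after irradiation overlaps ZT3 for Clock.

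The mean level of Arntl was 12.5 ± 4.36 FPKM at ZT3 (SD, n = 2), 15.1-fold that at ZT9 (0.829 ± 0.0366, n = 2). Clock went from 8.06 ± 0.0891 FPKM at ZT3 to 2.45 ± 0.802 at ZT9 (SD, n = 2), a ratio of 3.29. Npas2 had 8.23 ± 4.29 FPKM at ZT3 against 0.436 ± 0.194 at ZT9 and 0.346 ± 0.199 at ZT15 (SD, n = 2), 18.9-fold and 23.8-fold apart. Clock therefore had the narrowest range of the 3 over control times. The ZT3 libraries themselves differed, with replicate 2 above replicate 1 for Arntl and Npas2 and the same level of Clock in both.

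The differences between control times were large for single genes but did not pass the adjusted threshold of 0.05. On the log2(FPKM + 1) scale, which understates the change of low genes, the limma difference of ZT9 from ZT3 was -2.84 for Arntl (SE 0.29, adjusted p = 0.0536), -1.41 for Clock (SE 0.24, adjusted p = 0.111) and -2.61 for Npas2 (SE 0.34, adjusted p = 0.0959). In that comparison 0.00660% of all genes were called, and limma called 0 of the 3 activators while all 3, and 2427 of the 15161 genes, had an unadjusted p under 0.05. The Arntl difference passed with median-of-ratios scaling, at -2.88 (adjusted p = 0.0418), and with a pseudocount of 0.1, at -3.72 (adjusted p = 0.0398). It also passed when either library of 24 h after irradiation was left out of the limma fit, replicate 1 (adjusted p = 0.0353) or replicate 2 (adjusted p = 0.0353). The limma F test across the 3 control times, which called 0.0198% of genes, gave adjusted p = 0.0885 for Arntl, 0.199 for Clock and 0.0986 for Npas2. It called 0 of the 3 activators, and all 3, with 13.1% of all genes, had an unadjusted p under 0.05.

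Between ZT15 and ZT3 the limma differences were -1.72 for Arntl (adjusted p = 0.211), -0.47 for Clock (adjusted p = 0.509) and -2.70 for Npas2 (adjusted p = 0.121). Here 0.0198% of genes were called, and limma called 0 activators, with 2 and 11.4% of all genes at an unadjusted p under 0.05. From ZT9 to ZT15 the differences were 1.13 for Arntl (adjusted p = 0.665), 0.94 for Clock (adjusted p = 0.665) and -0.09 for Npas2 (adjusted p = 0.937). In this last comparison limma called 0% of genes, although 1106 genes, 2 of the activators among them, had an unadjusted p under 0.05. The sign for Npas2 turned with a term for Y-linked transcripts and without ZT9 replicate 2 or ZT15 replicate 2.

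**Figure D2:**
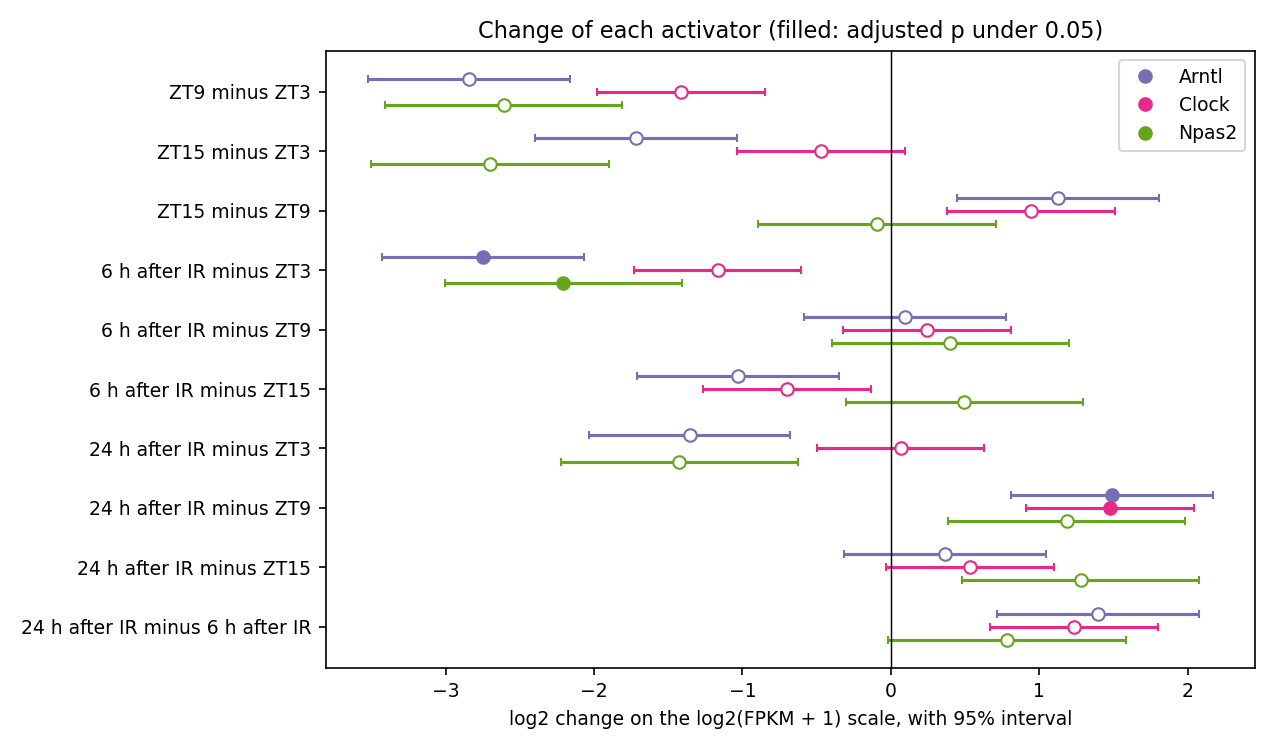
Log2 change of each activator on the log2(FPKM + 1) scale in 10 group comparisons, with 95% limma intervals; filled points have an adjusted p under 0.05. Arntl and Npas2 pass at 6 h against ZT3, and Arntl and Clock pass at 24 h against ZT9; the signs of Arntl at 6 h against ZT9, Clock at 24 h against ZT3 and Npas2 at ZT15 against ZT9 turn under other settings.

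At 6 h after irradiation all 3 activators were low. Arntl measured 0.861 and 1.05 FPKM, Clock 2.93 and 3.14, and Npas2 0.791 and 0.991. Both libraries of each gene lay below both ZT3 libraries, as the libraries of 53.8% of all genes did not overlap in this comparison. Arntl stood at 7.64% of its ZT3 mean, Clock at 37.6% and Npas2 at 10.8%. In limma Arntl fell by 2.75 from ZT3 on the log2 scale (SE 0.29, adjusted p = 0.0103) and Npas2 fell by 2.21 (SE 0.34, adjusted p = 0.0422). Clock was lower by a log2 difference of -1.17 and was not called (SE 0.24, adjusted p = 0.0859). Calls in either direction made up 0.792% of genes here and calls of lower genes 0.119%, so that 2 of the 18 genes called lower were activators.

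These calls rested on few libraries. Without ZT3 replicate 2 the limma difference of Arntl was -2.42 (adjusted p = 0.0707) and that of Npas2 was -1.71 (adjusted p = 0.181). The Arntl call also ended without replicate 1 (adjusted p = 0.109) or replicate 2 (adjusted p = 0.0872) of the 6 h group in limma. The Npas2 call ended on leaving out any library of ZT9, ZT15 or the irradiated groups in turn, with limma adjusted p-values from 0.0552 to 0.264, and was kept without ZT3 replicate 1. It also ended in fits with the Y-linked covariate (-2.35, adjusted p = 0.0819) or an Amy1 covariate (-2.36, adjusted p = 0.0706), with a pseudocount of 0.1 and with no filter. With only the 4 compared libraries in the limma fit both calls ended, at adjusted p = 0.0763 for Arntl and 0.118 for Npas2.

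Against ZT9 the 6 h glands differed less. The Clock libraries of the groups overlapped, and the means of Arntl, 0.954 ± 0.132 and 0.829 ± 0.0366 FPKM (SD, n = 2), differed by less than the larger SD although both 6 h libraries were the higher. Npas2 had both 6 h libraries above both ZT9 libraries, with a 2.04-fold mean, and 43.2% of all genes did not overlap here. The limma differences were 0.09 for Arntl (95% interval -0.59 to 0.77), 0.25 for Clock (-0.32 to 0.81) and 0.40 for Npas2 (-0.40 to 1.20). The sign of Arntl turned with quantile normalization and with a term for Amy1. Against ZT15 the differences were -1.03 for Arntl (adjusted p = 0.335), -0.70 for Clock (adjusted p = 0.461) and 0.50 for Npas2 (adjusted p = 0.759) in limma. Over all genes 0.514% were called at 6 h against ZT9 and 0.389% against ZT15. Of the activators limma called 0 in both, with 0 and 2 at an unadjusted p under 0.05, beside 12.2% and 8.73% of all genes.

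At 24 h after irradiation Clock was near its ZT3 level, and Arntl and Npas2 were below theirs. Clock measured 10.6 and 6.73 FPKM, with 1 library above and 1 below both ZT3 libraries and a mean of 108% of that of ZT3. Arntl measured 5.31 and 3.17 FPKM and Npas2 1.82 and 2.73, all below the lower ZT3 library, with means of 33.9% and 27.7% of ZT3. For 57.1% of all genes the libraries of these groups did not overlap. In limma the difference of Clock from ZT3 was 0.07 (95% interval -0.50 to 0.63), and its sign turned with median-of-ratios scaling, with quantile normalization, with a term for Amy1 and without replicate 1 of the 24 h group. The difference of Arntl was -1.36 (95% interval -2.04 to -0.68, adjusted p = 0.0979) and that of Npas2 was -1.43 (SE 0.34, adjusted p = 0.119). Limma called 0 of the 3 against 0.495% of all genes, and 2 had an unadjusted p under 0.05, as had 17.9% of all genes. Whether the change of Clock differed from that of the other genes was not tested.

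Against ZT9 the 24 h glands had higher activators. In limma Arntl rose by 1.49 on the log2 scale (SE 0.29, adjusted p = 0.0373) and Clock rose by 1.48 (SE 0.24, adjusted p = 0.0289). Npas2 was 1.18 higher and was not called (SE 0.34, adjusted p = 0.0828). These 2 calls stand against 5.11% of all genes called and 4.56% called higher in the same comparison, the largest shares of the 10 comparisons. The median change over all kept genes was 0.23 on the same scale. Both calls ended with median-of-ratios scaling, at 1.296 for Arntl (adjusted p = 0.0760) and 1.25 for Clock (adjusted p = 0.0609), and with quantile normalization, with a term for Y-linked transcripts or for Amy1, and when only the 4 compared libraries were fitted.

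Leaving out single libraries also ended them. The limma difference of Arntl was 1.19 without replicate 1 of the 24 h group (adjusted p = 0.223) and 1.79 without replicate 2 (adjusted p = 0.0719), and it was called only with ZT15 replicate 1 or ZT15 replicate 2 left out. Clock was 1.18 without replicate 1 of the 24 h group (adjusted p = 0.189) and 1.77 without replicate 2 (adjusted p = 0.0502) in limma. Its call was kept without ZT9 replicate 2 or without either ZT15 library.

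Against ZT15 the 24 h values of Arntl overlapped, with a limma difference of 0.36 (adjusted p = 0.467), and Clock and Npas2 lay above, by 0.53 (adjusted p = 0.229) and 1.28 (adjusted p = 0.0990). The libraries of 55.0% of all genes did not overlap. Here 1.13% of genes were called and limma called 0 activators, with 1 and 23.8% of all genes at an unadjusted p under 0.05. Within the irradiated glands both libraries of 24 h exceeded both of 6 h for all 3 genes, and 58.9% of all genes showed such a separation. The mean of Arntl was 4.44-fold that at 6 h, that of Clock 2.86-fold and that of Npas2 2.56-fold. The limma differences were 1.39 for Arntl (adjusted p = 0.120), 1.23 for Clock (adjusted p = 0.119) and 0.78 for Npas2 (adjusted p = 0.265), in a comparison with 0.0198% of genes called. Limma called 0 activators here, with 2 and 19.4% of all genes at an unadjusted p under 0.05.

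Ordered by mean, Arntl ran from ZT3 through 24 h, ZT15 and 6 h to ZT9. Its libraries overlapped between 24 h and ZT15, and 6 h and ZT9 did not differ beyond their spread. The order of Clock was 24 h, ZT3, ZT15, 6 h and ZT9, with overlap between 24 h and ZT3 and between 6 h and ZT9. Npas2 was ordered ZT3, 24 h, 6 h, ZT9 and ZT15, with overlap between ZT9 and ZT15. ZT9 and 6 h were thus the lowest pair for Arntl and Clock, and ZT9 and ZT15 for Npas2.

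FPKM is per length, so levels can be set side by side within a library. The ratio of Arntl to Clock, the FPKM of 2 partners, was 1.18 and 1.92 at ZT3 and below 1 in all 8 other libraries. It measured 0.427 and 0.283 at ZT9 and 0.635 and 0.455 at ZT15, then 0.293 and 0.334 in the 6 h group and 0.499 and 0.471 in the 24 h group. In the 24 h glands the ratio lay between the 2 ZT15 values, although the Clock level overlapped that of ZT3.

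NPAS2 can take the place of CLOCK, and the share of Npas2 in the summed FPKM of both genes changed with time. At ZT3 it was 39.4% and 58.1%, against 13.7% and 15.96% at ZT9 and 8.26% and 3.49% at ZT15. After irradiation it was 21.2% and 24.0% at 6 h and 14.6% and 28.9% at 24 h. Both ZT3 libraries lay above all others, both ZT15 libraries below all others, and the remaining groups between them. Only in ZT3 replicate 2 did Npas2 exceed Clock, with a ratio of 1.39.

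**Figure D3:**
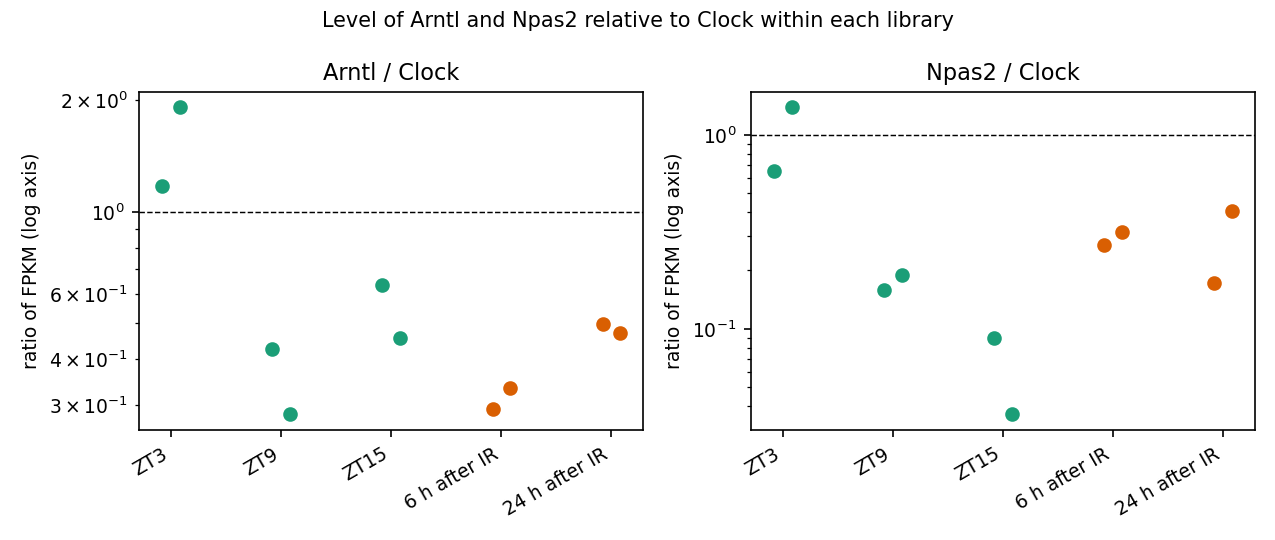
FPKM of Arntl and of Npas2 divided by that of Clock in each library, on log axes with a dashed line at 1; control times are green and irradiated groups orange. Arntl to Clock is above 1 in both ZT3 libraries and below 1 in the others, and Npas2 to Clock is lowest at ZT15 (0.0900 and 0.0362).

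Other measures also differed between these groups or libraries. Egf, a growth factor of the granular convoluted tubule, measured 7722 and 11262 FPKM at ZT3, and it was highest where Arntl and Npas2 were highest. In ZT9 glands it was 79.6 and 117 FPKM, in ZT15 glands 162 and 2362, in the 6 h group 1734 and 64.3, and in the 24 h group 811 and 66.1. Egf is 1 of 10 listed genes of this tubule, which summed to 66457.5 to 94516.3 FPKM at ZT3. In the other groups the sum ran from 13222.8 to 40589.8 FPKM. Klk1, also among the 10, went the other way, with a mean of 3571 FPKM at ZT3 and 27758 at ZT9. The summed FPKM of 12 acinar genes ran from 181163 to 625782 over libraries, and no acinar or duct marker was at 0 in both libraries of a group. In bulk tissue fewer cells of a type and less RNA per cell cannot be told apart. Y-linked transcripts were at 18.7 to 30.7 FPKM in replicate 1 of both irradiated groups, in replicate 2 of ZT15 and in both libraries of ZT3, and were listed at 0 with Xist at 24.9 to 58.3 in the other 5. Both ZT3 libraries thus held Y-linked transcripts and neither ZT9 library did. Egf split the same way, also within groups. It measured 811 to 11262 FPKM in the libraries with Y-linked transcripts and 64.3 to 162 in those without. For Egf, a difference between groups and one that goes with Y-linked transcripts therefore cannot be told apart. Between ZT3 and ZT9, a difference of time and one that goes with Y-linked transcripts cannot be told apart. Amy1, a parotid product, ran from 12.8 to 19203 FPKM, and the relative depth read from FPKM steps from 0.688 to 1.57. The files came in 2 gene orders, 1 for ZT3 and the irradiated groups and 1 for ZT9 and ZT15, so that a difference between these sets and a difference between control times cannot be told apart. The comparisons of 6 h and 24 h with ZT3 and with each other, and that of ZT15 with ZT9, lie within 1 order. The 4 plasma cell genes summed to 1937 to 4800 FPKM at ZT3, 250 to 1257 at ZT9 and 424 to 5592 at ZT15. After irradiation their sum was 198 to 4644 FPKM in the 6 h group and 164 to 217 in the 24 h group. The part of cell makeup in the activator values was not tested. Fits with terms for Y-linked transcripts and Amy1 kept the direction of every called activator difference but not every call.

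Other genes of the clock and relatives of the activators were set beside them. The list held 43 symbols, of which 38 passed the filter on low values, and it was chosen with results of these data known. Of the 38, 4 were bHLH-PAS relatives outside the clock, so counts and medians over the 38 are not of clock genes alone. At 6 h against ZT3, limma called 3 of the 38 higher and 0 lower: Per2 and Per3, repressors of the period family, and Usp2, a deubiquitinase that is an output of the clock. Of all 15161 genes 120 were called, and 17 of the 38 had an unadjusted p under 0.05 beside 14.7% of all genes. Per2 measured 0.472 and 0.369 FPKM at ZT3 and 5.96 and 6.81 at 6 h, a limma rise of 2.38 (SE 0.33, adjusted p = 0.0282). Per3 measured 4.05 and 1.60 FPKM at ZT3 and 19.1 and 18.8 at 6 h, a rise of 2.46 (SE 0.38, adjusted p = 0.0396). Usp2 went from 7.83 and 5.89 FPKM to 27.8 and 21.5, a limma rise of 1.70 (SE 0.28, adjusted p = 0.0467). In each case all libraries of 6 h lay above those of ZT3, the opposite side from the activators. The libraries of 53.8% of all genes did not overlap in this comparison, and these 3 genes are named because limma called them.

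At 24 h against ZT3 the period genes were higher, while the Clock libraries overlapped. Limma called Per1, Per2, Per3 and Usp2 higher, 4 of 38, and 0 lower, with 22 of 38 at an unadjusted p under 0.05. Over all genes 75 were called and 17.9% had such a p. Per1 went from 6.60 and 6.92 FPKM at ZT3 to 22.7 and 49.8 at 24 h, a limma rise of 2.16 (SE 0.32, adjusted p = 0.0385). Per2 rose by 2.83 in the same fit (SE 0.33, adjusted p = 0.0214). The median change of the 38 genes was 0.57 on the log2 scale, with 35 above 0, beside a median of 0.21 for all kept genes. At 24 h against ZT9 the single call among the 38 was Arntl2, the paralog of Arntl, at 0.847 and 0.980 FPKM at ZT9 and 2.30 and 3.83 at 24 h (limma rise of 1.06, SE 0.24, adjusted p = 0.0473). Over all genes 5.11% were called in that comparison and 4.56% were called higher. In limma 11 of the 38 had an unadjusted p under 0.05 there, beside 26.7% of all genes. In the other 7 pairwise comparisons limma called 0 of the 38, with 2 to 19 at an unadjusted p under 0.05, beside 1106 to 3608 of all genes. The comparisons with ZT3 share its 2 libraries. In 18 alternatives each, added after seeing the data, these 8 differences of Per1, Per2, Per3, Usp2 and Arntl2 kept their direction, and the calls were kept in 1 to 11 of them. Each ended without ZT3 replicate 1 and without ZT3 replicate 2, and the highest limma adjusted p was 0.289, for Usp2 at 6 h.

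Nr1d1, Dbp and Cry1 had other orders of groups than the activators. Nr1d1, which encodes a repressor of Arntl, measured 27.1 and 12.9 FPKM at ZT3, 67.8 and 51.5 at ZT9 and then 3.47 and 9.11 at ZT15. In irradiated glands it was 38.4 and 34.99 FPKM (6 h) and 20.9 and 38.3 FPKM (24 h). Its highest group was ZT9, where Arntl was lowest, but its lowest was ZT15, where Arntl was not at its highest. Dbp, a target of the activators, measured 8.55 and 3.88 FPKM at ZT3, 281 and 115 at ZT9 and then 12.5 and 28.1 at ZT15. In irradiated glands it was 86.8 and 95.004 FPKM (6 h) and 22.1 and 76.3 FPKM (24 h). Cry1 was highest at ZT15, at 11.6 and 9.22 FPKM, against 1.87 and 2.73 at ZT3. None of Nr1d1, Dbp and Cry1 was called by limma in any of the 10 comparisons.

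**Figure D4:**
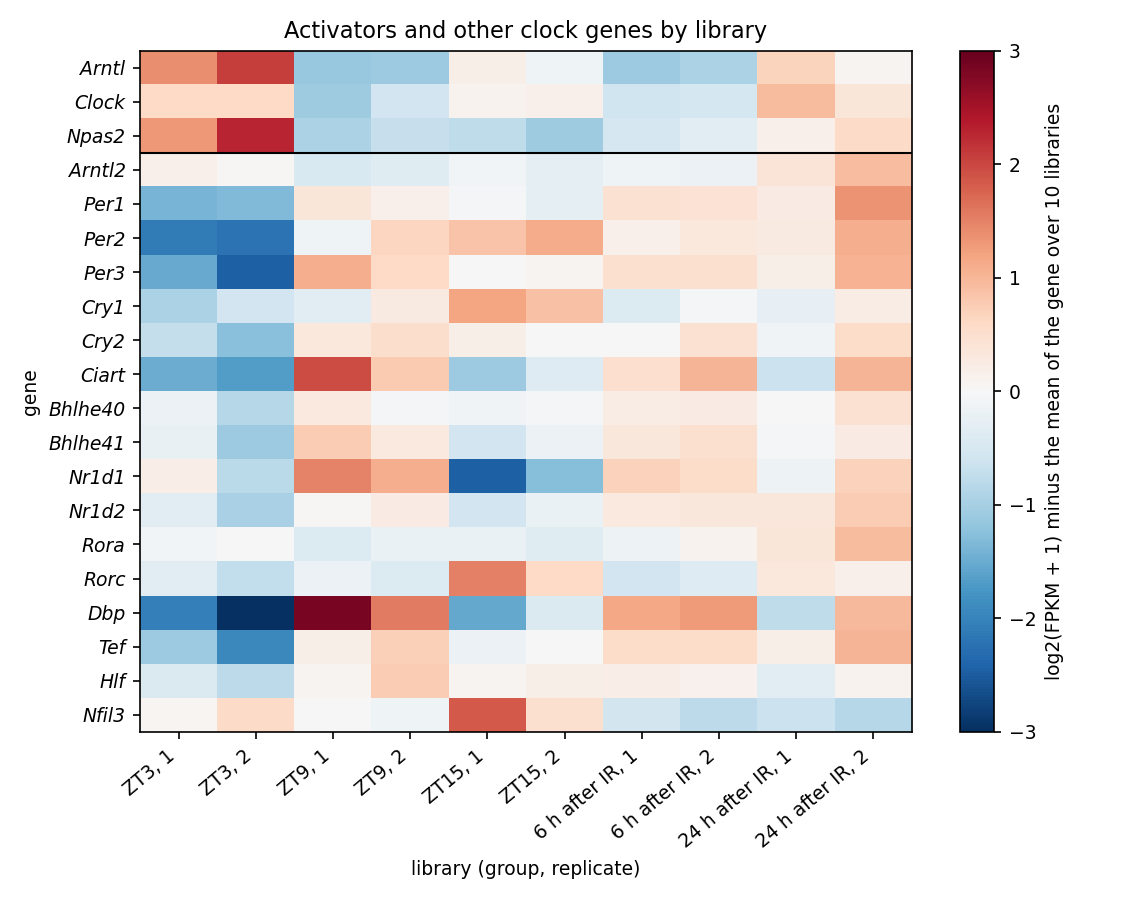
log2(FPKM + 1) minus the mean of each gene over the 10 libraries, for the 3 activators (above the line) and 17 other clock genes; columns are libraries. Arntl and Npas2 are high at ZT3, where Per1, Per2, Per3 and Dbp are low.

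Likeness to an activator was measured as the root-mean-square difference of log2(FPKM + 1), each gene centred on its own mean over the 10 libraries. The 13006 genes compared share their libraries and depth, so the values describe these libraries only. Nearest to Arntl were Esrrg, a nuclear receptor, at 0.312, Prss23, a serine protease, at 0.383, St3gal5, the GM3 synthase, at 0.408, Prss23os at 0.410 and Chst13, a sulfotransferase, at 0.415. Prss23os is the antisense partner of Prss23, and without a statement on strand their reads cannot be told apart. Npas2 was the 29th nearest to Arntl, at 0.565, and Clock the 48th, at 0.610. The nearest mirror images of Arntl were Smpdl3b at 0.419, the chemokine Cxcl10 at 0.503 and Per3 at 0.551, with Usp2 the 7th. The own root-mean-square deviation of Arntl was 1.06.

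Clock had closer neighbours, since it varied less (0.624). They were Osbpl8, a lipid transfer protein, at 0.194, B4galt6, a lactosylceramide synthase, at 0.206, Ints2, an Integrator subunit, at 0.209, Ap1s3 at 0.222 and Pfkfb2, an enzyme of glycolytic control, at 0.232. Its mirror images were Barx2, a homeobox gene, at 0.226, Car6, the carbonic anhydrase of saliva, at 0.232 and Bckdha at 0.237. Arntl was 4433rd in likeness to Clock, at 0.610, and Npas2 was 9786th, at 0.793, so both lay about as far from Clock as a gene that does not vary, or farther. In likeness to Npas2, Arntl was 10th and Clock 216th. Nearest to Npas2 were Lrit3 at 0.455, Lancl3 at 0.491, Syt16 at 0.497, the ubiquitin ligase gene Fbxw7 at 0.513 and Bcl2l14 at 0.534. Its mirror images were Klk1 at 0.545, Tspan4 at 0.561 and Smpdl3b at 0.589. Klk1 belongs to a family of near-identical kallikrein genes, so its level is uncertain.

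The CUT&Tag lists held more summits at Arntl than at Clock or Npas2. In all there were 31014 and 19746 summits for Bmal1, 9627 and 38363 for Nr1d1, and 49295 and 10352 for Dbp in replicates 1 and 2, so replicates differed widely in length. At Arntl all 6 lists had summits: 14 and 6 for Bmal1, 6 and 14 for Nr1d1, and 14 and 4 for Dbp. At Clock only the longest list of each target had any, 2 for Bmal1, 3 for Nr1d1 and 2 for Dbp. At Npas2 Bmal1 had 4 and 3, Nr1d1 had 7 in replicate 2 and 0 in replicate 1, and Dbp had 2 in replicate 1 and 0 in replicate 2.

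**Figure D5:**
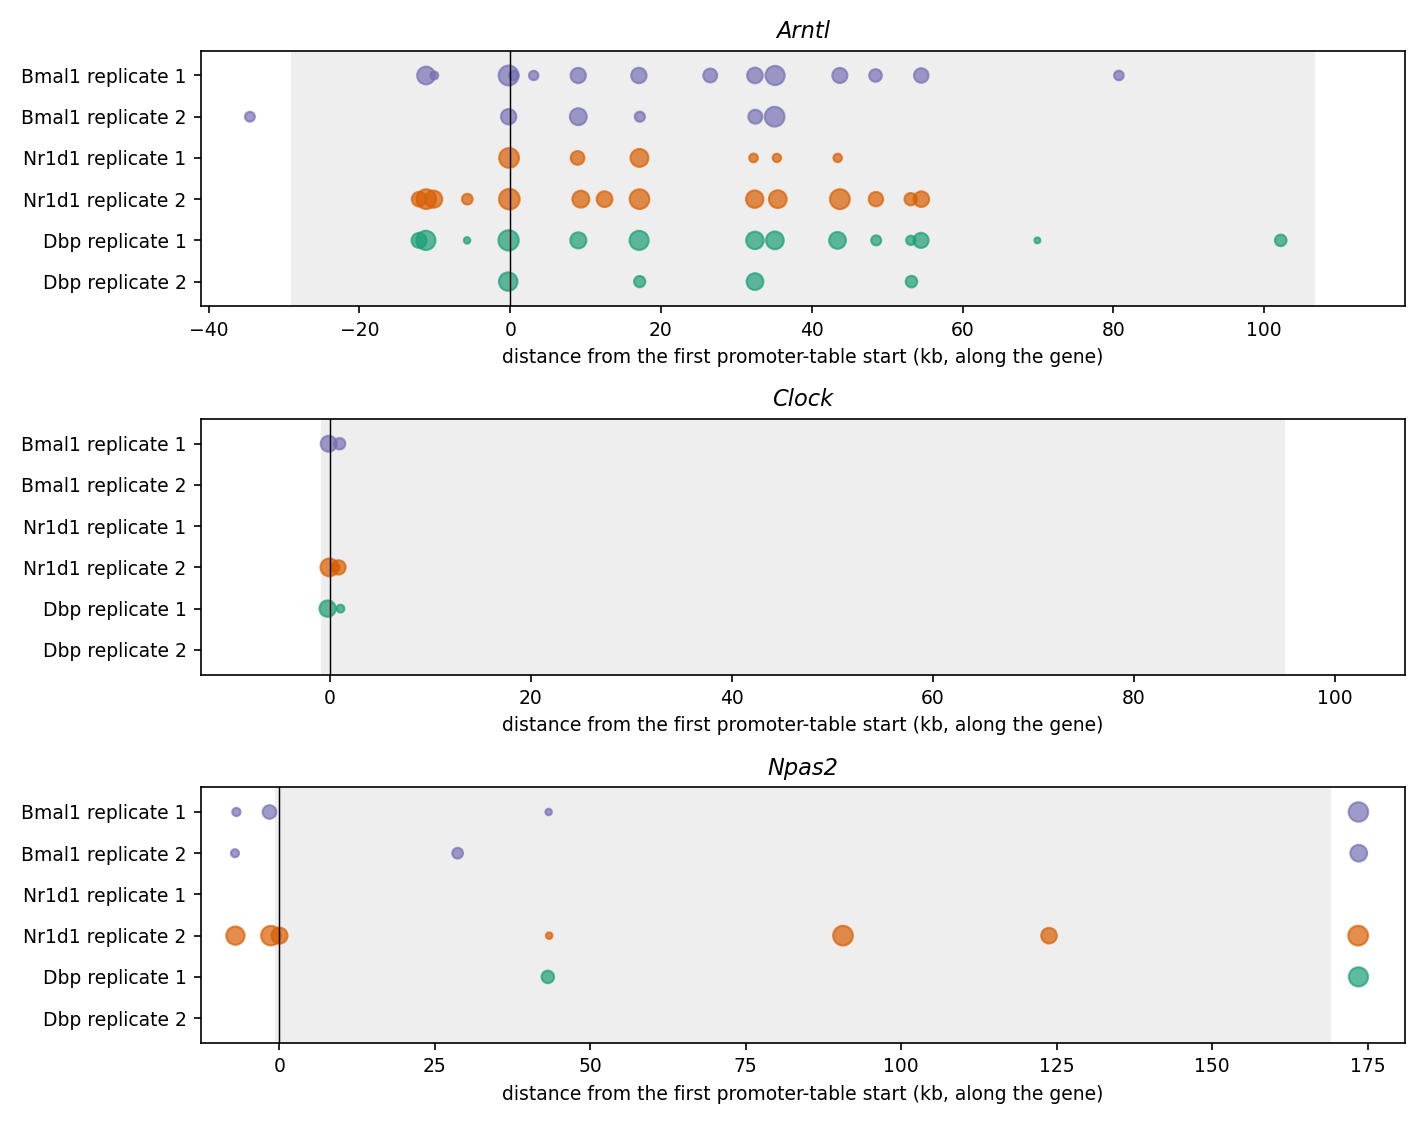
Summits of the 6 lists along each gene and 10 kb to either side, by distance in kb from the first start in the promoter table; grey marks the annotated gene, and larger points rank higher within their own list. At Arntl all 6 lists have a summit at the start, and at Clock only the longest list of each target has summits.

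Summits of both lists of a target within 200 bp of each other formed 5 regions for Bmal1, 4 for Nr1d1 and 4 for Dbp at Arntl. Of 21887 protein-coding genes, 25.9% had such a region for Bmal1, 13.3% for Nr1d1 and 28.2% for Dbp. At least as many as at Arntl were found at 0.507%, 0.297% and 0.941% of genes, with no allowance for gene length. At Clock there was none for any target. Npas2 had 1, for Bmal1, at chr1:39367796-39367839, beyond the annotated end of the gene and 12 to 55 bp from the start of Rpl31, a ribosomal protein gene. With only the summits above the median score of their list, Arntl kept 3, 2 and 2 regions.

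Joined over all lists, the Arntl summits fell into 24 regions, of which 3, or 12.5%, held all 6 lists. In the genome 2048 of 73775 regions did so, or 2.78%. Of protein-coding genes 8.91% had at least 1 such region and 0.288%, or 63 genes, had at least 3. The first, chr7:113207204-113207355, lay at the promoter shown above, 110 to 261 bp before the start, with the Dbp summit of replicate 2 just outside the window. The other 2 lay within the gene, at chr7:113224536-113224662, which is 17071 to 17197 bp past the start, and at chr7:113239745-113239980, which is 32280 to 32515 bp past it. All 3 targets therefore had summits within 236 bp of each other at these places.

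At the Arntl promoter the ranks of the summits within their lists differed as much between replicates as between targets. They lay above 93.1% and 51.9% of the list for Bmal1, 91.7% and 99.9% for Nr1d1, and 97.1% and 78.9% for Dbp, in replicates 1 and 2. The score is the authors' own and its scale is not stated. The Nr1d1 summit of replicate 2 scored 49.2 and was 56th of 38310 summits, and that of replicate 1 scored 8.61 and was 800th of 9584. The Dbp summits were 1449th of 49235, with a score of 33.6, and 2172nd of 10324, with a score of 8.19. The Bmal1 summits fell on the same base, 113207256, and were 2132nd of 30977, with a score of 25.0, and 9485th of 19699, with a score of 5.699. For Nr1d1 and Dbp, both replicates had their highest Arntl summit here. For Bmal1 replicate 2 it lay instead at 113242543, 35078 bp past the start, ranked 1766th with a score of 11.8.

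Further regions in both lists of 1 target stood within the gene. For Bmal1 these were chr7:113216494-113216501 and chr7:113242543-113242602, for Nr1d1 chr7:113242835-113242962 and for Dbp chr7:113260613-113260694. About 54500 bp past the Arntl start, summits from the longest list of each target lay 231 to 270 bp from the start of the predicted gene Gm33721. Upstream, at chr7:113196281-113196336, the same 3 lists had summits 11129 to 11184 bp before the Arntl start, within its longest annotated span.

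The Clock summits stood at its starts. Those in the window shown above were at 76304913 for Bmal1 replicate 1 (score 8.85), 76304841 for Nr1d1 replicate 2 (13.3) and 76305022 for Dbp replicate 1 (9.13), with within-list ranks of 13251, 10128 and 19823. They lay 35 to 146 bp from the start of the predicted gene Gm7467, so they cannot be given to Clock alone. A second set from the same lists lay at chr5:76303741-76303938, 239 to 436 bp before the third Clock start. Nr1d1 replicate 2 had 1 more, at 76304229, past the second start. No summit lay in the rest of the gene, which spans 95736 bp.

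At Npas2 the Nr1d1 summits of replicate 2 were the most frequent. One lay 20 bp after the start, in the window shown above, with a score of 9.42, and another 1353 bp before it scored 20.9. Within the gene the highest was at 39284911, with a score of 22.002 and rank 3602. Bmal1 had summits in both replicates at chr1:39187143-39187372, 6900 and 7129 bp before the start, which were over 200 bp apart and were joined by an Nr1d1 summit between them. The longest list of each target had a summit at chr1:39237446-39237664, with low ranks for Bmal1 and Nr1d1 (30392 and 37443).

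The promoter windows were searched on both strands for CACGTG and CACGTT (E-box and variant), AGGTCA (the receptor element), and TTATGTAA and TTACGTAA (D-boxes). No E-box or D-box letters were found in the 2 Arntl, 3 Clock and 1 Npas2 windows. Of 32851 RefSeq promoter windows of this length 7.15% hold CACGTG, 4.68% CACGTT, 0.938% TTATGTAA and 0.119% TTACGTAA. AGGTCA, held by 16.3%, was found once at Arntl, at chr7:113207542-113207547, 187 and 225 bp past the Nr1d1 summits, 286 bp past those of Bmal1 and 291 and 338 bp past those of Dbp. It was found once at Clock, on the opposite strand at chr5:76303616-76303621, and not at Npas2. AGGTTA, searched after the Arntl promoter was read and held by 8.49% of windows, lies at chr7:113207506-113207511 and does not overlap the AGGTCA site. A match describes letters only, and the windows do not cover the regions within the genes.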

How the data were processed

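RNA-seq covered 10 libraries and CUT&Tag 6 lists. Expression was deposited as FPKM per gene, per the labels' protocols; the submitters' processing notes list HISAT2, Cufflinks, SAMtools, Bowtie2 and mm10 with no roles, and their versions and the annotation behind the values are not stated there. Each CUT&Tag list gives 1-bp summits and a score deposited by the authors, whose caller, control and scale are not stated, so it served only for ranks inside 1 list.

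Each file held 55398 entries; 217 entries of 107 repeated symbols were left out. FPKM carries no counts, so depth in reads is unknown and the number of libraries limits the precision. Genes at FPKM 1 or more in at least 2 libraries were fitted as log2(FPKM + 1) with limma 3.58.1 in R 4.3.3, with trend and a mean for each group (10 libraries, 5 residual degrees of freedom). Two-sided p-values were Benjamini-Hochberg adjusted over 15161 genes, and called means an adjusted p under 0.05. The script was tested on simulated data. With 2 libraries per group no exact permutation test can reach that threshold, and no test of outlying libraries applies.

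Summits were joined within 200 bp in Python 3.11.15 (numpy 2.4.6, pandas 2.3.3, matplotlib 3.10.9). Genes named are the activators, the clock list, the 5 nearest and 3 mirror genes of each activator leaving out predicted and clone-named genes, and summits in both lists or highest in a list; others named were chosen after their values were seen. The members and lists were chosen with earlier results of these data known. Alternatives were quantile normalization, median-of-ratios scaling, no filter, a pseudocount of 0.1, fewer libraries, a replicate block, terms for Y-linked transcripts and Amy1, leaving out each library, and other limits for shared summits.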

Additional observations from a re-analysis of the deposited data

How the results depend on the processing

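Over the activators and their summit counts, 566 of 630 values were the same as in the main setting. For a difference this means the same direction and side of the threshold. An F test had to keep its side, and a summit count had to stay close to the main count. Many of these values belong to comparisons that were not called in the main fit and stayed so. For Arntl, ZT9 against ZT3 passed with median-of-ratios scaling (-2.88) and a pseudocount of 0.1 (-3.72); leaving out 1 library gave -3.18 to -2.51. Arntl at 6 h against ZT3 lost its call when only the compared libraries were fitted (-2.75) and ranged from -3.09 to -2.42 without single libraries. Arntl at 6 h against ZT9 turned to -0.0986 with quantile normalization and -0.0988 with an Amy1 term. At 24 h against ZT9 Arntl lost its call with median-of-ratios scaling (1.296), quantile normalization (1.25), no filter (1.49), the compared libraries only (1.49), a Y-linked term (1.45), an Amy1 term (1.38) and without single libraries (1.19 to 1.79), and Clock with the same scalings (1.25 and 1.20), the compared libraries (1.48), the Y-linked (1.37) and Amy1 terms (1.36) and single libraries (1.18 to 1.77). Clock at 24 h against ZT3 turned to -0.174 (median-of-ratios), -0.135 (quantile) and -0.00276 (Amy1 term), with -0.229 to 0.361 without single libraries. Npas2 at 6 h against ZT3 lost its call with a pseudocount of 0.1 (-2.98), no filter (-2.21), the compared libraries (-2.21), Y-linked (-2.35) and Amy1 terms (-2.36) and single libraries (-2.70 to -1.71). Npas2 at ZT15 against ZT9 turned to 0.0490 with the Y-linked term and ran from -0.246 to 0.0573 without single libraries. The cause of these changes was not tested. Median-of-ratios scaling moved the median of all genes by up to -0.246 (24 h against ZT9) and quantile normalization by up to -0.224.

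Regions at Arntl with only summits above the median score numbered 3 for Bmal1, 2 for Nr1d1 and 2 for Dbp; those for Bmal1 at Npas2 numbered 2 with a 500 bp limit, 0 within 1 kb of the gene and 3 within 50 kb. Same-numbered libraries had correlations of deviations from -0.141 to 0.473 over 10 pairs of groups. With 2 libraries per group these values do not settle whether the numbers pair the samples. With the replicate block Arntl at 24 h against ZT9 was 1.49 (limma adjusted p = 0.0552), and the genes called there went from 774 to 428. Genes called over the whole table ranged, over all alternatives, from 0 to 43 for ZT9 against ZT3 (1 in the report), 0 to 21 for ZT15 against ZT3 (3), 0 to 13 for ZT15 against ZT9 (0), 18 to 140 (120), 3 to 73 (78) and 3 to 68 (59) at 6 h against ZT3, ZT9 and ZT15, 0 to 237 (75), 0 to 1121 (774) and 0 to 521 (172) at 24 h against the same, 2 to 67 (3) for 24 h against 6 h and 0 to 24 (3) for the F test.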
